A study of Mus musculus with 24 samples.

Results

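Regulators of G-protein signaling (RGS) were followed as a set of 8 genes, Rgs1, Rgs2, Rgs3, Rgs10, Rgs14, Rgs16, Rgs18 and Rgs19, in RNA sequencing of mouse natural killer (NK) cells. Members were taken by gene symbol from the 45237 genes of the count table, and all 8 were among the 17097 genes kept for testing. The set was chosen on measured values of these same libraries, with Rgs16 known to be high in one group. Levels of Rgs16 are therefore a description given with no p-value, and nothing is read from the number of members that differ.

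NK cells were sorted from spleens of wild-type C57BL/6J mice; the study's methods give females aged 7 to 9 weeks as its default. Control mice were not treated (4 libraries). Other mice received tumor cells in a vein: either RMA, a T cell lymphoma line, or RMA-KR, which is RMA with B2m knocked out and the NKG2D ligand Rae1-β added by a lentiviral vector, grown from single cells by limiting dilution. Groups were RMA day 2 (3 libraries), RMA day 4 (3), RMA day 9 (3), RMA-KR day 2 (3), RMA-KR day 7 (5) and RMA-KR day 14 (3). After day 2 the models were sampled on different days, so tumor and day cannot be told apart there. The study counts its late-stage RNA-seq samples as mice, but the labels name no mouse for any library. If libraries shared a mouse, p-values would measure only the spread between libraries.

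When a receptor coupled to a G protein is engaged, the Gα subunit binds GTP and signals until the GTP is cleaved. RGS proteins bind active Gα and speed that cleavage, which shortens the response to chemokines, sphingosine-1-phosphate, prostaglandins and other ligands that steer lymphocytes through the spleen. Several Rgs genes, Rgs1, Rgs2 and Rgs16 among them, are themselves switched on within hours of cell stimulation. Neither recent stimulation nor receptor signaling was measured in these libraries.

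Total counts ran from 5138651 to 14863500 per library with a median of 10489204. Summed over the marker list, NK cell genes stood at 22609 to 42634 normalized CPM (counts scaled to the size of the library) in all 24 libraries. The T cell list summed to 362 to 689 CPM, most of it Trbc1 (181 to 419), Trbc2 (75.1 to 170) and Cd28 (60.5 to 181). Of its other genes, Cd3d reached 30.6, Cd3g 24.2, Cd5 23.5 and Trac 19.9 CPM, and Cd3e, Cd4, Cd8a and Cd8b1 at most 5. The B cell list summed to 213 to 606, with Ighm at 213 to 483, and the dendritic cell list to 421 to 1172, with Itgax at 377 to 1075. The macrophage and monocyte list summed to 4 to 80.1 and the granulocyte list to at most 12.4 CPM. Some libraries stood apart. Immediate early genes such as Fos, Jun and Dusp1, which rise within minutes of stimulation or handling, summed to 2609 to 3356 CPM in 4 libraries and to 6984 to 15766 CPM in the other 20. The 4 low libraries were control replicate 4 and RMA-KR day 7 replicates 3, 4 and 5. They also had the most genes detected, 24621 to 27820 against at most 24234 in the other 20, and in RMA-KR day 7 their NK marker sum was 22609 to 24388 CPM against 36776 and 38091. Where leaving them out changed a call of a member, the result is given with and without them.

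Of the 8 genes, 4 lie on one chromosome. In the mm10 build, Rgs2 (chr1:143999338-144004161, minus strand), Rgs1 (chr1:144242296-144249242, minus strand), Rgs18 (chr1:144752683-144775435, minus strand) and Rgs16 (chr1:153740349-153745468, plus strand) are on chromosome 1. Rgs3 is at chr4:62559847-62704001, Rgs14 at chr13:55369732-55384687, Rgs19 at chr2:181688419-181693977 and Rgs10 at chr7:128373621-128418758. The promoter table of RefSeq (GRCm38.p6) matched 5 of the 8 members and held none for Rgs1, Rgs14 and Rgs18. The windows of Rgs16 (chr1:153740103-153740402, plus strand) and Rgs2 (chr1:144004100-144004399, minus strand), 250 bases before to 50 after the start site, are shown because both transcripts were low in the same 4 libraries. Capitals mark every match, on either strand, to TGACG (the core of the cAMP response element) or GGGCGG (a GC box).
Rgs16: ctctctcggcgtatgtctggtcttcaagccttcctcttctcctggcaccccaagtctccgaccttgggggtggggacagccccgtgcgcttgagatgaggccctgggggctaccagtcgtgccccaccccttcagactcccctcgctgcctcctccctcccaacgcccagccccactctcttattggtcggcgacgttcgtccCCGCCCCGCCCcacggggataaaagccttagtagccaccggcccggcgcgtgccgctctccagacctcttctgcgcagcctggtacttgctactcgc
Rgs2: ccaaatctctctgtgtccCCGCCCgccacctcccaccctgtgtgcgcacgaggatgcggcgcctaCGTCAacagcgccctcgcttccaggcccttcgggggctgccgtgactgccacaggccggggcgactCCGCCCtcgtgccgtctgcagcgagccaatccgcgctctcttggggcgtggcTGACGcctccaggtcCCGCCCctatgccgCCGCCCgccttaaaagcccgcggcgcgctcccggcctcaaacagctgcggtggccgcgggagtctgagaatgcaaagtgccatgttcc
The Rgs2 window held 2 matches to TGACG, starting at -185 and -67 from the start site, and 4 to GGGCGG. The Rgs16 window held no match to TGACG and 2 to GGGCGG, at -47 and -42, which share bases. Of 32851 promoter windows of this length, 20.8% held TGACG and 35.7% held GGGCGG. Neither window matched the full element TGACGTCA, which contains TGACG and was in 1.79% of windows, or the AP-1 site TGACTCA, which was in 5.2%. These matches describe letters only.

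Levels differed widely between members. Per kilobase of coding transcript (the median length over the annotated coding transcripts of a gene), the mean over the 24 libraries was 276 ± 117 normalized CPM (SD) for Rgs1, 186 ± 78.2 for Rgs2 and 136 ± 25.2 for Rgs19. Rgs14 followed at 76.5 ± 13.6, Rgs3 at 44.5 ± 16, Rgs16 at 19.7 ± 15.5, Rgs18 at 6.85 ± 5.68 and Rgs10 at 1.75 ± 1.72. By these means Rgs1 was the most abundant RGS transcript and Rgs10 the least. The order turned in the 4 low libraries, where Rgs1 stood at 71.7 per kilobase in control replicate 4 and a mean of 83.4 ± 3.29 (SD, n = 3) in RMA-KR day 7 replicates 3 to 5, below Rgs19 at 146 in both. Of the 13 other Rgs genes in the table, the highest was Rgs12, at a mean of 9.81 normalized CPM, not scaled to length. All further levels are normalized CPM, not scaled to length, and compare libraries for 1 gene at a time.

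**Figure D1:**
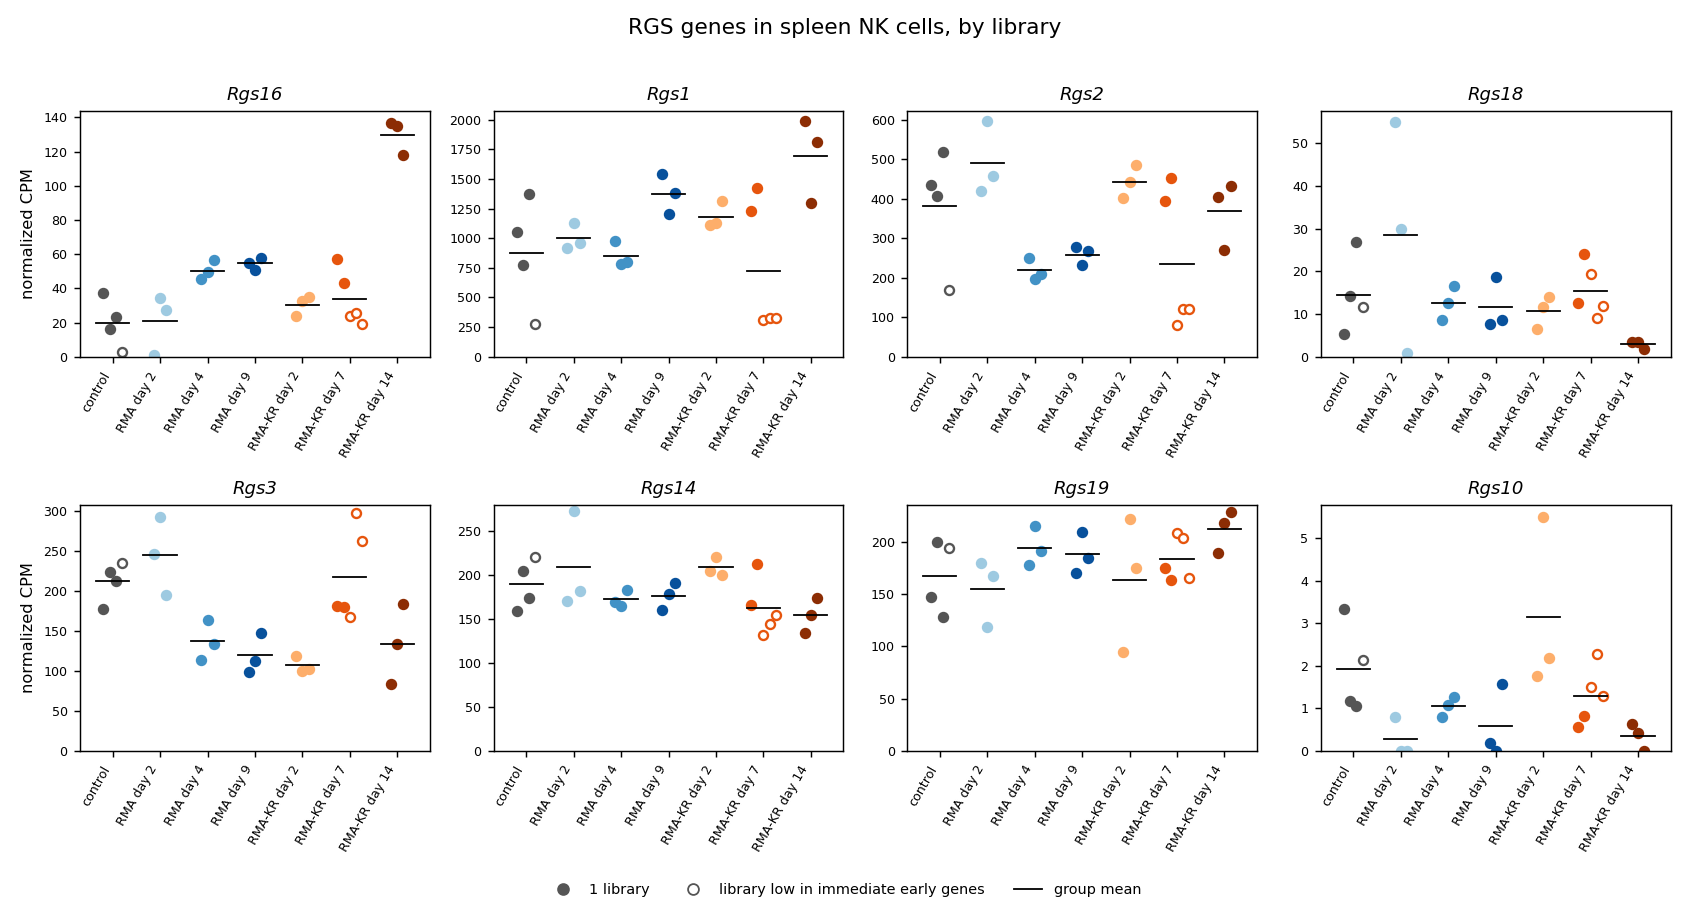
Normalized CPM (vertical axis, from 0) of the 8 RGS genes in each of 24 libraries, by group. Each point is 1 library, open points are the 4 libraries low in immediate early genes and lines are group means. Rgs16 stood at 118 to 137 in RMA-KR day 14 and at most 58 elsewhere, while Rgs14 and Rgs19 varied little.

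Rgs16, a small RGS protein that acts on Gαi and Gαq and is inducible in activated lymphocytes, had its highest level at the end of RMA-KR growth. In control libraries it was 37.3, 16.5, 23.4 and 2.95, the last being control replicate 4, one of the low libraries. RMA day 2 gave 1.2, 34.5 and 27.1, and RMA-KR day 2 gave 23.6, 32.8 and 35.1. These groups overlapped, and the value of 1.2 in RMA day 2 replicate 1 rested on 9 counts.

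RMA day 4 stood at 45.2, 49.4 and 56.4 and RMA day 9 at 55.1, 51 and 58, above every control library in both groups. RMA-KR day 7 split into 56.9 and 43 in replicates 1 and 2 and 24, 25.6 and 19.3 in the 3 low libraries. RMA-KR day 14 reached 137, 135 and 118, above each of the other 21 libraries. Ordered by mean, the groups ran control (20 ± 14.3, SD, n = 4), RMA day 2 (20.9 ± 17.5, n = 3), RMA-KR day 2 (30.5 ± 6.05, n = 3), RMA-KR day 7 (33.8 ± 15.8, n = 5), RMA day 4 (50.3 ± 5.67, n = 3), RMA day 9 (54.7 ± 3.53, n = 3) and RMA-KR day 14 (130 ± 10.5, n = 3). Neighbours in that order overlapped library by library, except that RMA-KR day 14 stood apart from RMA day 9.

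The fitted log2 fold change of Rgs16 against control was 1.34 (SE 0.64) at RMA day 4, 1.46 (SE 0.64) at RMA day 9 and 2.71 (SE 0.66) at RMA-KR day 14. From day 2 it was 1.38 (SE 0.7) to RMA day 9 and 2.09 (SE 0.71) to RMA-KR day 14. The 1.38 was 0.83 without RMA day 2 replicate 1, the library with 9 counts, and 1.95 without replicate 2. Against control, fits without 1 library gave 0.93 (without control replicate 4) to 1.79 (without control replicate 1) at RMA day 4 and 1.06 to 1.92, without the same libraries, at RMA day 9. RMA day 9 against RMA-KR day 14 gave -1.25 (SE 0.69). Without the 4 low libraries the value at RMA-KR day 14 against control was 2.37 and at RMA day 9 it was 1.1, and control replicates 1 to 3 averaged 25.7 ± 10.6 (SD, n = 3). Of the exonic bases of Rgs16, 1835 of 2339 lie within the span of an antisense gene, Gm28513. How many lie under its exons was not counted. Gm28513 held 0 to 16 counts per library against 9 to 1918 for Rgs16. Whether reads were counted by strand was not given in the sources used here. If strand was ignored, the union mode of the counting would set aside reads over exons of both genes. The level of Rgs16 and its rank among members could then be too low.

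In the test across all genes (edgeR quasi-likelihood, adjusted p under 0.05 and over 2-fold, called below), 1 of the 8 members was called at RMA-KR day 14 against control, against 0.983% of all genes, and that member was Rgs16. Since this contrast was known when the set was chosen, nothing is read from the count. The call was lost without control replicate 2, 3 or 4 or any RMA-KR day 14 library, and 7 fits that each left out 1 library gave log2 fold changes of 2.32 to 3.18. It was also lost with the replicate number as a block (2.57), with only the groups compared (2.71) and without the 4 low libraries (2.37). It was kept with DESeq2 size factors, without the filter on low counts, with a term for the 4 low libraries and with DESeq2, at 2.7 with default settings and 1.86 with betaPrior=TRUE.

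Against control, groups without any overlap were also counted. At RMA day 9, 2 of 8 members did not overlap control (Rgs16 higher, Rgs3 lower), against 18% of all genes. At RMA-KR day 14 it was 3 of 8 (Rgs16 higher, Rgs18 and Rgs10 lower), against 13.6% of all genes. It was 1 of 8 at RMA day 2, 1 at RMA-KR day 2, 2 at RMA day 4 and 0 at RMA-KR day 7. No share of all genes was counted for these groups, so nothing is read from them. The members named at RMA day 9 and RMA-KR day 14 include Rgs16, whose level chose the set. At RMA-KR day 14 they also include Rgs10, which held at most 7 counts there and at most 24 in control. Nothing is read from the numbers of those 2 groups either.

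**Figure D2:**
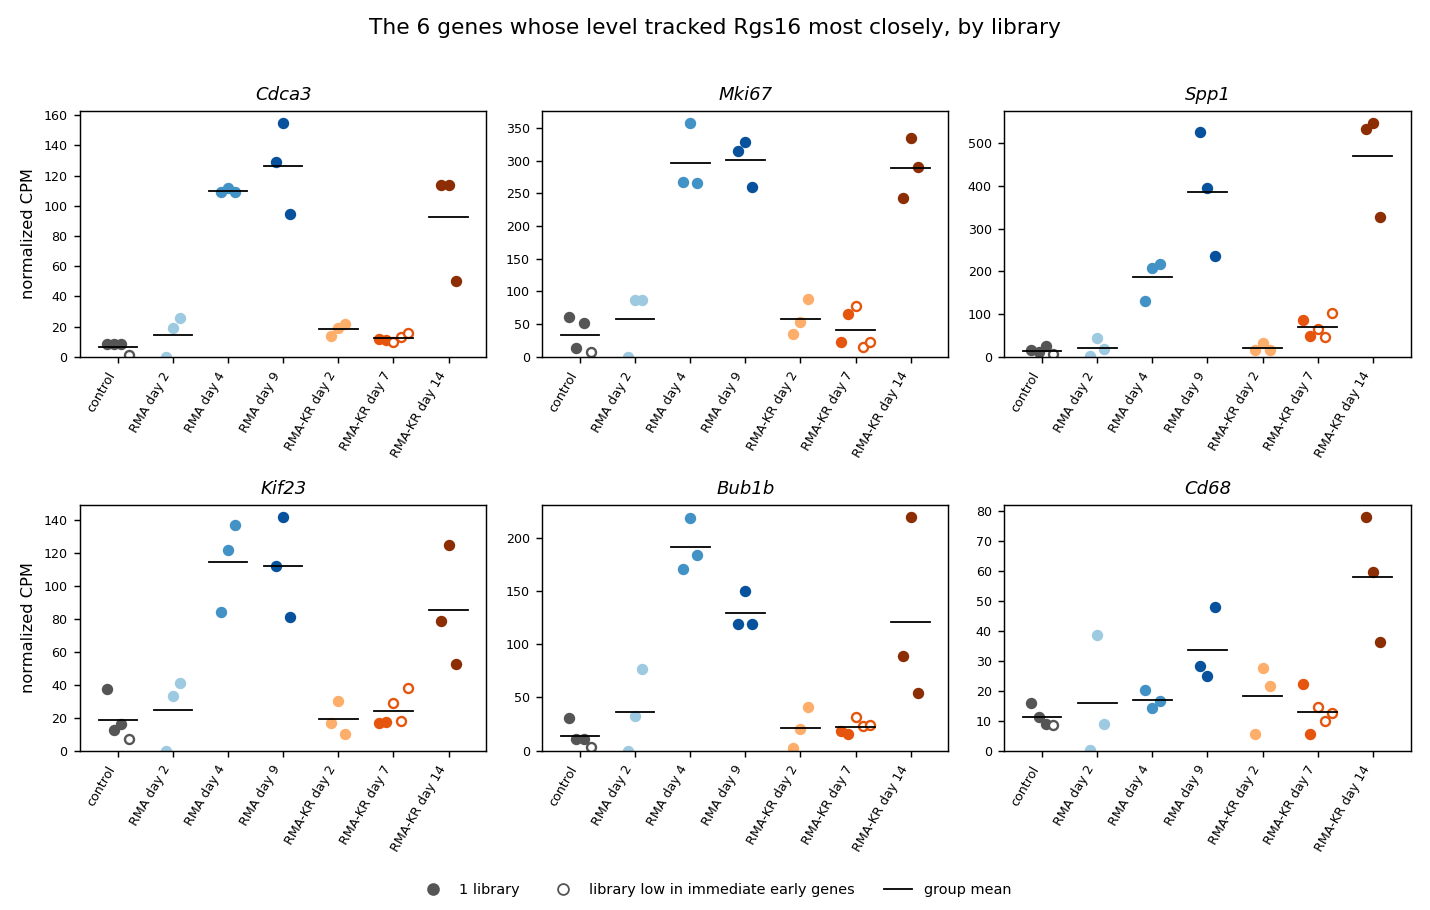
Normalized CPM (vertical axis, from 0) of the 6 genes whose log2 level correlated most with that of Rgs16 over 24 libraries. Each point is 1 library, open points are the 4 libraries low in immediate early genes and lines are group means. All 6 were high at RMA day 9 and RMA-KR day 14, and 5 of them, all but Cd68, also at RMA day 4.

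The genes whose level was most like that of Rgs16, by Pearson correlation of log2 normalized CPM over the 24 libraries among 9472 genes with a mean of at least 5 CPM, were Cdca3 (0.88), Mki67 (0.88), Spp1 (0.84), Kif23 (0.84), Bub1b (0.84) and Cd68 (0.84). Mki67 encodes the Ki67 protein of dividing cells, Cdca3, Kif23 and Bub1b are used in mitosis, Spp1 encodes osteopontin and Cd68 a lysosomal membrane protein. The libraries share their groups, so these values describe likeness and carry no p. RMA day 2 replicate 1 held 0 to 1.6 CPM of all 6 genes beside its 1.2 CPM of Rgs16, and without that library the correlations were 0.68 to 0.8.

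Spp1 had nearly the group order of Rgs16, with means of 14.2 ± 7.86 CPM in control and 469 ± 123 at RMA-KR day 14. Mki67 did not, and averaged 297 ± 52.7 CPM at RMA day 4, 301 ± 35.6 at RMA day 9 and 289 ± 45.5 at RMA-KR day 14 (SD, n = 3 each), whereas Rgs16 reached 118 CPM or more in the last group alone. Cd68 had its highest mean, 57.9 ± 20.9 CPM, at RMA-KR day 14, against 11.1 ± 3.39 in control. The B cell and dendritic cell marker lists were also higher at RMA-KR day 14 than in control, with no overlap. The B cell list summed to 429 to 606 against 242 to 426 CPM. The dendritic cell list summed to 819 to 952 against 421 to 681 CPM. It was above control with no overlap also at RMA day 4 (881 to 1006) and RMA day 9 (742 to 1046). Most of the dendritic cell sum was Itgax, whereas Clec9a was at 0 in 18 of 24 libraries and Siglech in 15. Cd68 is also on the macrophage and monocyte marker list, which summed to 36.3 to 80.1 CPM at RMA-KR day 14 and 8.74 to 18.9 in control. The 10 other genes of that list summed to 0.0964 to 11 CPM at RMA-KR day 14 and 0 to 4.24 in control, and over all 24 libraries Lyz2 was at 0 in 8 and reached 17.2 CPM, Csf1r was at 0 in 11 and reached 6.25, and Mrc1 was at 0 in 12. C1qa, C1qb and C1qc were at 0 in 18 or more. The part of any of these cells in the Rgs16 level was not tested. In bulk samples, more cells with a transcript and more transcript per cell cannot be told apart.

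The other RGS genes tracked Rgs16 less closely over the 24 libraries. The correlation was 0.54 for Rgs1, 0.16 for Rgs19, 0.11 for Rgs2, -0.24 for Rgs14, -0.49 for Rgs18 and -0.52 for Rgs3. Without the 4 libraries low in immediate early genes, the value for Rgs2 changed sign, to -0.29 over the other 20. The rest kept their sign: 0.5 for Rgs1, 0.27 for Rgs19, -0.27 for Rgs14, -0.54 for Rgs18 and -0.47 for Rgs3. Rgs10 was below the level set for this comparison.

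Rgs1, which limits the response of lymphocytes to chemokines, had the highest mean level of the set. Control libraries held 1056, 778, 1376 and 275 normalized CPM. RMA-KR day 14 held 1988, 1293 and 1808 and RMA day 9 held 1538, 1203 and 1378. The lowest library of each late group fell within the control range. RMA day 2 held 919, 1126 and 962, all below RMA day 9, and RMA-KR day 2 held 1109, 1126 and 1310. RMA day 4 held 974, 786 and 800. RMA-KR day 7 was split, with 1233 and 1425 in replicates 1 and 2 and 306, 323 and 331 in the 3 low libraries.

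The fitted log2 fold change of Rgs1 against control ran from -0.27 to 0.96 over the 6 tumor groups, with standard errors of 0.4 to 0.49 over all comparisons and adjusted p of 0.347 to 0.999 (edgeR). Rgs1 was not called in any of the 11 comparisons. The 0.96 at RMA-KR day 14 had an unadjusted p of 0.0468 (adjusted p 0.347, edgeR), and RMA day 9, whose libraries did not overlap RMA day 2, differed from it by 0.45 (adjusted p 0.675, edgeR). Without the 4 low libraries the range against control was -0.31 to 0.71 with adjusted p of 0.108 to 1, and Rgs1 was again not called. At RMA day 2 its sign against control changed with these libraries left out, from 0.2 to -0.04. At RMA-KR day 7 the value against control went from -0.27 to 0.33. For RMA day 4 against RMA-KR day 7 it went from 0.24 to -0.64 (adjusted p 0.282, edgeR).

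Rgs2, which acts mainly on Gαq, was lower at RMA day 4 and RMA day 9 than in most other libraries. RMA day 4 held 249, 197 and 210 normalized CPM and RMA day 9 held 277, 231 and 267. Control libraries held 435, 406, 517 and 168. Among the control libraries only replicate 4, one of the low ones, was below the RMA day 4 and day 9 values. RMA day 2 held 418, 596 and 458, RMA-KR day 2 held 401, 442 and 486, and RMA-KR day 14 held 404, 271 and 433. RMA-KR day 7 held 394 and 453 in replicates 1 and 2 and 81.1, 121 and 122 in the 3 low libraries.

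With all 24 libraries and no term for the low ones, Rgs2 was not called against control in any group, with log2 fold changes of -0.81 to 0.36 and adjusted p of 0.347 to 0.982 (edgeR). Without the 4 low libraries, a fit added after seeing the data, Rgs2 passed the threshold at RMA day 4 against control, at -1.04 on the log2 scale, and stood at -0.8 at RMA day 9, under the fold threshold. That fit is no independent test of Rgs2: it leaves out libraries by a sum that Rgs2 follows, and with them the control library lowest in Rgs2. In that fit 1.17% and 1.21% of all genes were called in the 2 comparisons. A term for the 4 low libraries in the fit of all 24 gave -1.14 at RMA day 4, where Rgs2 passed the threshold, and -0.9 at RMA day 9, where it did not reach 2-fold. With that term 2.09% and 1.91% of all genes were called, and the fit is no independent test of Rgs2 either. In the same comparisons the median of all genes was -0.29 and -0.18. For RMA day 4 against RMA-KR day 7, Rgs2 went from -0.1 to -0.96 without the 4 low libraries (edgeR adjusted p 0.0403). That was under the fold threshold. RMA day 9 and RMA day 2 hold none of the 4 low libraries, and their Rgs2 levels did not overlap. RMA day 9 against RMA day 2 gave -0.93 with all 24 libraries (edgeR adjusted p 0.304). It gave -0.97 without the 4 low libraries (edgeR adjusted p 0.0115) and -0.93 with the term for them (edgeR adjusted p 0.0119). These values were also under the fold threshold.

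The immediate early sum moved with these values. It was 7630 to 8242 CPM at RMA day 4 and 6984 to 10078 at RMA day 9, against 11834 to 14121 in control replicates 1 to 3. Over the 20 libraries other than the 4 low ones, log2 Rgs2 correlated with the log2 immediate early sum at a Pearson r of 0.86 and a Spearman rho of 0.68, and r was 0.81 without the 2 libraries farthest from the median sum. Over the same 20 libraries r was 0.19 for Rgs1, -0.27 for Rgs16 (rho -0.48), 0.47 for Rgs3 and -0.52 for Rgs19 (rho -0.56). It was 0.35 for Rgs14 and 0.05 for Rgs18. These are descriptions over libraries that share groups, and the part of the immediate early level in the Rgs2 result was not tested.

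**Figure D3:**
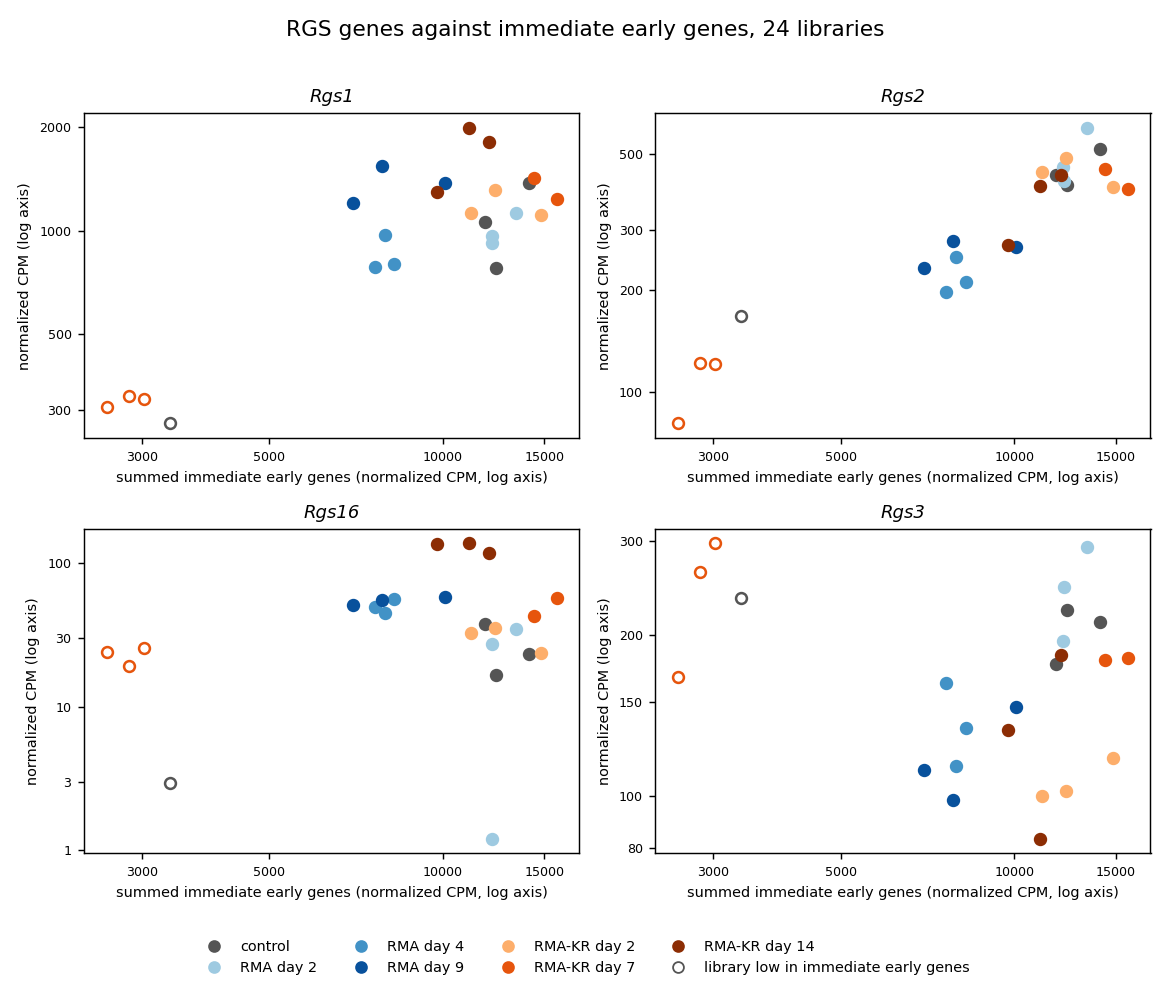
Normalized CPM of Rgs1, Rgs2, Rgs16 and Rgs3 (vertical log axes) against the summed CPM of 25 immediate early genes (horizontal log axis), 1 point per library. Open points, at sums of 2609 to 3356, are the 4 low libraries; Rgs2 followed the sum also among the other 20 libraries (r = 0.86) and Rgs1 did so less (r = 0.19).

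Members differed in how far the 4 low libraries stood from the rest of their groups. In the control group, replicate 4 held 0.257 of the mean of replicates 1 to 3 for Rgs1, 0.372 for Rgs2 and 0.114 for Rgs16. In RMA-KR day 7, replicates 3 to 5 held 0.241 of the mean of replicates 1 and 2 for Rgs1, 0.255 for Rgs2 and 0.46 for Rgs16. The same ratios were 1.15 and 1.34 for Rgs3, 1.22 and 1.14 for Rgs19, 1.23 and 0.757 for Rgs14 and 0.756 and 0.733 for Rgs18. For comparison, Fos stood at 0.0715 and 0.0787, and the NK receptor gene Ncr1 at 0.901 and 0.815. Rgs1, Rgs2 and Rgs16 were thus the members that were low in both sets of low libraries by more than 2-fold. These ratios compare libraries chosen for their immediate early sum and carry no test.

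Rgs3, which acts on Gαi and Gαq and has long isoforms with further domains, differed between the models at day 2. RMA day 2 libraries held 246, 292 and 195 normalized CPM and RMA-KR day 2 libraries held 118, 99.9 and 102, with no overlap. Rgs3 was 1.2 higher on the log2 scale in RMA day 2 (SE 0.26, edgeR adjusted p 0.0461). It was the 1 member of 8 called there, against 0.304% of all genes. Control libraries held 177, 223, 212 and 235, above all RMA-KR day 2 libraries. Their mean of 212 ± 24.8 (SD, n = 4) was within 1 SD of the RMA day 2 mean of 244 ± 48.2 (n = 3).

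The later RMA groups had less Rgs3. RMA day 4 held 114, 163 and 134 and RMA day 9 held 98.5, 112 and 147, below every RMA day 2 and control library. From RMA day 2 to RMA day 9 Rgs3 changed by -1.03 on the log2 scale (SE 0.26, edgeR adjusted p 0.0325), and Rgs3 was the 1 member of 8 called, against 2.01% of all genes. Both calls share the RMA day 2 libraries. RMA-KR day 7 held 181, 180, 167, 297 and 262, overlapping control, and RMA-KR day 14 spread over 83.2, 133 and 184.

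The test of the difference itself, the change from day 2 to the late day in RMA minus that in RMA-KR, gave -1.36 for Rgs3 (SE 0.36, unadjusted p 0.00108, adjusted p 0.28, edgeR). No gene was called in that test, 1777 of 17097 had an unadjusted p under 0.05, and other tools were not run on it. Both calls of Rgs3 depended on the fit and on single libraries. The day 2 call was lost with the replicate number as a block (1.19, edgeR adjusted p 0.0547) and with only the groups compared (1.21, edgeR adjusted p 0.313). The call from RMA day 2 to day 9 was lost with only the groups compared (-1.07, edgeR adjusted p 0.14). Fits of only the groups compared called 0 genes and 1 gene of all tested in that order, so these losses are not particular to Rgs3. The day 2 difference was kept in 1 of 6 fits without 1 library, that without RMA day 2 replicate 3, and ran from 1.05 to 1.36 with adjusted p of 0.0135 to 0.182. It was lost without RMA day 2 replicate 1 or 2 or any RMA-KR day 2 library. The fall from RMA day 2 to day 9 was kept in 2 of 6 fits (without RMA day 2 replicate 3 or RMA day 9 replicate 3) and ran from -1.21 to -0.86 with adjusted p of 0.0196 to 0.225. It was lost without RMA day 2 replicate 1 or 2 or RMA day 9 replicate 1 or 2. The span of an antisense gene, Gm11209, covers 197 of 10801 exonic bases of Rgs3, and Gm11209 held 0 to 17 counts.

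**Figure D4:**
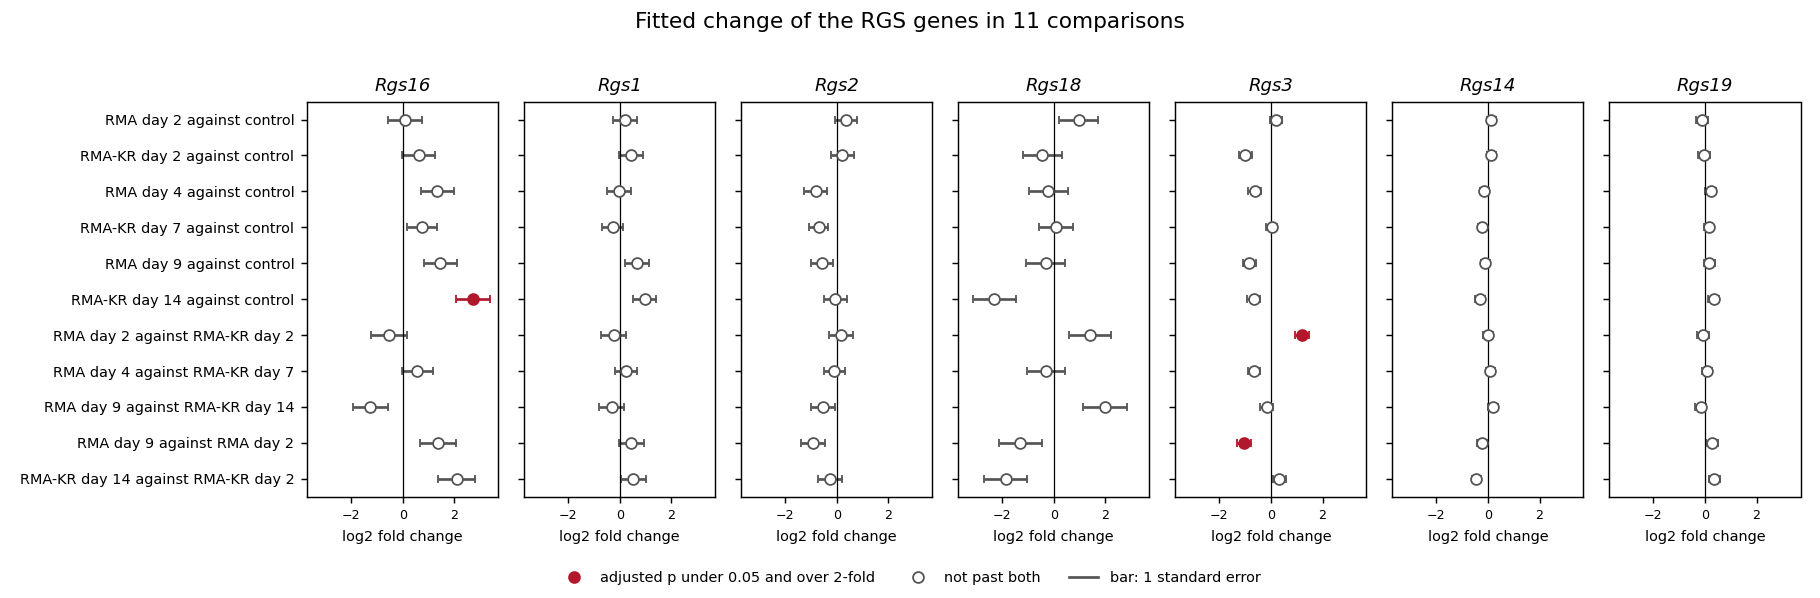
Fitted log2 fold change (horizontal axis) of 7 RGS genes in 11 comparisons, with bars of 1 standard error. Filled red points passed an adjusted p under 0.05 and 2-fold. Rgs16 passed at RMA-KR day 14 against control (2.71, the value for which the set was chosen, so no test of it). Rgs3 passed for RMA day 2 against RMA-KR day 2 (1.2) and for RMA day 9 against RMA day 2 (-1.03). Rgs10 is left out because its counts were near 0.

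Rgs18, an RGS gene best known from platelets and megakaryocytes, was lowest at RMA-KR day 14. That group held 3.47, 3.51 and 1.83 normalized CPM, from 39, 50 and 19 counts. Control libraries held 5.36, 14.2, 26.9 and 11.7, all higher. The log2 fold change was -2.3 (SE 0.82), and it did not pass the threshold (adjusted p 0.225, edgeR). RMA day 9 held 7.65, 18.6 and 8.62, also all above RMA-KR day 14, and the log2 difference was 1.98 (SE 0.84, edgeR adjusted p 0.655). From RMA-KR day 2 (6.58, 11.7 and 13.9) to day 14 it was -1.86 (SE 0.84, adjusted p 0.312). DESeq2 with default settings called Rgs18 at RMA-KR day 14 against control (-2.29, adjusted p 0.0415), where it called 2.68% of all genes, and with betaPrior=TRUE, which shrinks fold changes, it did not (-1.18, adjusted p 0.1).

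Within groups Rgs18 was among the most variable members. RMA day 2 held 54.8, 30 and 0.793, the last from 6 counts, so its difference from RMA-KR day 2 (1.41, SE 0.82, adjusted p 0.488) and the one from RMA day 9 (-1.29, SE 0.82, adjusted p 0.423) were not distinguishable from the spread. Without RMA day 2 replicate 1 they were 0.54 and -0.4, and without replicate 3 they were 2.01 and -1.87. Platelet and megakaryocyte markers summed to 15.5 to 31.2 CPM at RMA day 2 and 20.4 to 26.2 at RMA-KR day 2, the 2 highest groups by median. In RMA day 2 replicates 1, 2 and 3 they summed to 15.5, 31.2 and 24.7, beside Rgs18 at 54.8, 30 and 0.793. RMA-KR day 2 held Rgs18 at 6.58 to 13.9. The marker sums were 1.83 to 4.92 at RMA-KR day 14 and 3.27 to 5.21 in control, ranges that overlapped where Rgs18 did not. The part of platelets in the Rgs18 level was not tested.

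Rgs14 and Rgs19 varied least, and neither was called with or without the 4 low libraries. Rgs14, which also binds inactive Gαi and Ras proteins, lay between 132 and 273 in all libraries, and its log2 fold change over the 11 comparisons ran from -0.44 to 0.2 with a lowest adjusted p of 0.302 (edgeR). Rgs19, a membrane-bound regulator of Gαi, lay between 94.7 and 229, with log2 fold changes of -0.17 to 0.37 and a lowest adjusted p of 0.452. Their standard errors lay between 0.16 and 0.24. For Rgs14 all RMA-KR day 14 libraries (134, 154 and 174) were below all RMA-KR day 2 libraries (205, 221 and 200).

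Rgs10, a regulator of Gαi known from macrophages and microglia, had 0 to 72 counts per library and its highest value was 5.51 normalized CPM in RMA-KR day 2. It was at 0 in 4 libraries: RMA day 2 replicates 2 and 3, RMA day 9 replicate 2 and RMA-KR day 14 replicate 3. At this depth 3 counts, the floor used, stand for 0.208 to 0.554 CPM. No fold change is given for it.

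In the other comparisons none of the 8 members was called by edgeR with all 24 libraries, the filter on low counts and no term beyond the groups. Against control the share of all genes called was 0% at RMA day 2, 0.0819% at RMA-KR day 2, 1.65% at RMA day 4, 0.0175% at RMA-KR day 7 and 1.79% at RMA day 9. Of the 7 members other than Rgs16, the number with an unadjusted p under 0.05 was 0, 1, 1, 0 and 1 in that order, beside 7.04%, 8.71%, 15.9%, 5.91% and 14% of all genes. Between the models it was 0.503% of genes for RMA day 4 against RMA-KR day 7 and 0% for RMA day 9 against RMA-KR day 14, with 1 of these 7 at an unadjusted p under 0.05 in each, beside 14.2% and 7.31% of all genes. From RMA-KR day 2 to day 14, 0.322% of genes were called, and 2 of the 7 had an unadjusted p under 0.05, beside 15% of all genes. DESeq2, with default settings or with betaPrior=TRUE, called none of the 7 in these 8 comparisons. In the 2 comparisons where edgeR called no gene at all, 1204 and 1249 genes had an unadjusted p under 0.05, and DESeq2 with default settings called 60 and 42.

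The genes around the RGS proteins were read against the share of all genes called, which was 0% to 2.01% over the 11 comparisons. Of 10 Gα subunit genes tested and 12 Gβ and Gγ subunit genes tested, none was called in any of the 11 comparisons (edgeR), nor was any of 18 other RGS-domain or RGS-binding genes. Median log2 fold changes against control were -0.28 to 0.5 for the Gα list and 0.01 to 0.67 for the Gβ and Gγ list, beside -0.29 to 0.01 for all genes. The highest of these, 0.67 for the Gβ and Gγ list at RMA day 9, stood beside -0.18 for all genes. For RMA day 2 against RMA-KR day 2 the Gα median was -0.74, beside -0.03 for all genes.

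Of 53 receptor genes tested, F2rl2, a thrombin receptor of the protease-activated family, rose at RMA day 4 (137 ± 11.9 against 60 ± 14.9 CPM in control, 1.19 on the log2 scale, edgeR adjusted p 0.0019) and at RMA day 9 (155 ± 13.8 CPM, 1.37, adjusted p 0.000468). Gpr65, a receptor for protons, was higher in RMA day 2 than in RMA-KR day 2 (201 ± 77.3 against 90.4 ± 31.4 CPM, 1.15, adjusted p 0.0473). Each was the 1 receptor gene of 53 called in its comparison, against 1.65%, 1.79% and 0.304% of all genes in that order. Of 43 second messenger and arrestin genes tested, 1 was called, at RMA-KR day 14 against control, where 0.983% of all genes were: Rap1gap2, which switches off Rap1, fell there (118 ± 24.4 against 261 ± 60.1 CPM, -1.14 on the log2 scale, adjusted p 0.0131).

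Of 24 immediate early genes tested, the ones called against control were Myc, higher at RMA day 4 (1.2, adjusted p 0.00415) and RMA-KR day 14 (1.13, adjusted p 0.0102), Egr1, higher at RMA-KR day 14 (1.84, adjusted p 0.0151), and Klf2, lower at RMA day 9 (-1.15, adjusted p 0.0126). That is 1, 2 and 1 of 24 genes at RMA day 4, RMA-KR day 14 and RMA day 9, against 1.65%, 0.983% and 1.79% of all genes. Klf2, a transcription factor that maintains S1pr1 and so the exit of lymphocytes from lymphoid organs, stood at 92.1 ± 6.14 CPM at RMA day 9 against 204 ± 41.9 in control. From RMA day 2 to day 9, Klf2 (-1.11, adjusted p 0.0265) and Fosb (-2.76, adjusted p 0.0378) were called lower, 2 of 24 against 2.01% of all genes.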

How the data were processed

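Groups were taken from the sample labels. RNA was made into poly(A)-selected libraries (Lexogen). The authors trimmed reads with cutadapt 1.10, removed ribosomal reads with Bowtie2 2.2.8, aligned the rest to mm10 with STAR 2.5.3a and counted them per Ensembl gene with HTSeq 0.6.1p1 in union mode. The deposited values used are raw read counts of 24 libraries. The other 48 columns of values by library, and those holding fold changes and p-values of the authors' comparisons, were not used.

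In R 4.3.3, edgeR 4.0.16 filtered genes by expression over the 7 groups, scaled counts by TMM and fitted 1 mean per group. Its quasi-likelihood test was run for 11 comparisons, and p-values were adjusted over 17097 genes (Benjamini-Hochberg). A gene was called at an adjusted p under 0.05 and over 2-fold. Normalized CPM are counts scaled to the TMM-adjusted library size, and log2 values used a prior count of 2. The steps were tested on simulated data. Libraries of a group differed by more than sampling noise (chi-square per degree of freedom 12.2 to 62.6 over 31 pairs), so none was counted as a duplicate. Floors of 3 counts cover counting error only. Gene positions came from GENCODE M21 on GRCm38.

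The members and gene lists were chosen with earlier results of these data known. All 8 members are described. Log2 fold changes with their errors are printed where their size was at least 1 or the gene was called, and otherwise as ranges. From each pathway list up to 4 called genes per direction and comparison are named. DESeq2 1.42.0, other scaling and filters, a replicate block, fits of only the groups compared and fits without single libraries were alternatives.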

Additional observations from a re-analysis of the deposited data

Results flagged for a closer look

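Rgs3 differed between the tumor models at day 2, by 1.2 on the log2 scale for RMA day 2 against RMA-KR day 2, which was marked because the difference between the 2 tumor models was itself tested and passed (edgeR, adjusted p 0.0461, SE 0.26). Values were higher in 3 of 3 RMA day 2 libraries than in each RMA-KR day 2 library. The call was kept in 1 of 6 fits without 1 library (that without RMA day 2 replicate 3). It was lost with the replicate block (edgeR adjusted p 0.0547) and with only the groups compared (edgeR adjusted p 0.313), where 0 genes were called. None of 16 checks for a library far from the rest of its group (8 members in control and in RMA-KR day 7) passed Dixon's limit, in which the low values of RMA-KR day 7 form 3 of 5 libraries and so cannot stand out singly.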

How the results depend on the processing

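Under settings other than leaving out 1 library, 86 counts of members called were the same as the main count and 13 were not. At RMA-KR day 14 against control the count was 1 and became 0 with at least 10 counts in every library (a filter that removes Rgs16), with the replicate block, with only the libraries of the groups compared and without the 4 low libraries, and 2 with DESeq2 at default settings (Rgs16 and Rgs18). Rgs16 was also called, a count of 1, without a filter at RMA day 9 against control, beside 1.04% of all genes. From RMA-KR day 2 to day 14 it was called without a filter (0.745% of all genes) and with DESeq2 betaPrior=TRUE (1.6%). At RMA day 4 against control the count was 1 (Rgs2) without the 4 low libraries (1.17% of all genes) and with a term for them (2.09%). Both fits were added after seeing the data. The Rgs3 call between RMA day 2 and RMA-KR day 2 became 0 with the replicate block and with only the groups compared. That from RMA day 2 to day 9 became 0 with only the groups compared. Fits of only the groups compared called 0 genes and 1 gene of all tested in that order. Calls of Rgs16 are a description, since its level chose the set. The cause was not tested.

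Fits without 1 library gave counts of 0 to 1 at RMA-KR day 14 against control, RMA day 2 against RMA-KR day 2 and RMA day 9 against RMA day 2, and 0 in the other 8 comparisons. No log2 fold change printed singly for Rgs16, Rgs18 or Rgs3 changed sign under any setting that gave a value. The genes of the pathway lists were fitted under the main setting alone. So was the test of the change from day 2 to the late day in RMA minus that in RMA-KR. Replicate numbers did not pair the samples: the correlation of deviations between libraries of the same number had a median of -0.007 (-0.118 to 0.202 over 64 pairs), and 4 of 21 libraries correlated best with their own number. With the block, 100 rather than 168 genes were called at RMA-KR day 14 against control, 17 rather than 52 for RMA day 2 against RMA-KR day 2, and 0 rather than 14 at RMA-KR day 2 against control. Counts of all genes called also differed by tool: DESeq2 at default settings called 620, 601 and 459 genes at RMA day 4, RMA day 9 and RMA-KR day 14 against control, against 282, 306 and 168 with edgeR. Depth limits Rgs10 (0 to 72 counts). Rgs18 (6 to 411 counts) had the widest spread within groups, an SD of 1.24 on the log2 scale.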
